A study of Mus musculus with 48 samples.

Results

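Endoplasmic reticulum folding and stress genes are described here in the livers of 48 mice fed diets of different protein, carbohydrate and fat content. The genes were chosen from a written list of 34, each taken as its single-symbol probe set with the highest mean over all arrays. 33 of the 34 had such a probe set, out of 22180 genes in all. Pdia4 had none and was left out. All 33 lay above the limit on low values, a mean log2 level of 1.17, which left 16926 genes to test. They comprise 5 sensors and regulators, 17 chaperones and folding enzymes, 7 genes of degradation and 4 of translocation and transport.

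The endoplasmic reticulum is where secreted and membrane proteins enter the secretory route, are folded, receive sugars and disulfide bonds, and are checked before export. When unfolded protein builds up, the membrane sensors Ern1 (IRE1 alpha), Eif2ak3 (PERK) and Atf6 signal to the nucleus and the ribosome, and the factors Xbp1 and Atf6 raise the transcription of chaperones and of the degradation machinery. Hspa5 (BiP, GRP78) binds unfolded chains and also holds the sensors inactive. The hepatocyte secretes most plasma proteins and is rich in this compartment. Activation of the sensors themselves occurs by phosphorylation, cleavage or mRNA splicing, which an array level does not measure.

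The mice, of both sexes, ate their diet freely from 3 weeks of age and were killed at 15 months, with 1 animal taken per cage and 1 array run per liver. A diet's 3 figures give the energy share, in percent, of protein, then carbohydrate, then fat. At 5% protein there were 10 mice, all on high energy diets (2 on 5/20/75, 4 on 5/48/48 and 4 on 5/75/20). At 14% protein there were 9 (high energy 4 on 14/29/57 and 2 on 14/57/29; medium energy 1 on 14/29/57 and 2 on 14/57/29). At 23% protein there were 9 (high energy 3 on 23/38/38 and 2 on 23/65/12, medium energy 3 on 23/38/38 and low energy 1 on 23/38/38). At 33% protein there were 9 (high energy 2 on 33/20/47 and 2 on 33/47/20, medium energy 3 on 33/20/47 and 2 on 33/47/20). At 42% protein, all on 42/29/29, there were 3 medium, 1 high and 1 low energy mice, and at 60% protein, all on 60/20/20, there were 3 low and 3 high energy mice. The labels name neither strain nor genotype, and give no sex for single mice.

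The hepatocyte markers Alb, Apoa1, Ttr and Cyp2e1 averaged between 11.61 and 12.90 log2 units, whereas the probe set of Serpina1b averaged 2.34. The single medium energy 14/29/57 mouse stood apart, with a median correlation of 0.92 to the other arrays, against 0.945 to 0.974 in the other 47. Its summed macrophage markers were at 13.46 log2 units, against 8.46 to 11.23 in the others, and its summed hepatocyte markers at 13.86, against 14.42 to 14.70. Values without it are given for some comparisons. The spread of values within an array, its interquartile range, averaged 3.48 log2 units at 5% protein, 3.30 at 14%, 3.19 at 23%, 3.17 at 33%, 3.21 at 42% and 3.16 at 60%, and is used below as a covariate. In whole liver, fewer cells of a type and less RNA per cell cannot be told apart.

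Sequence upstream of the genes was also looked at. The list holds genes of the ER stress response, so motifs of that response in them are not independent of the choice of genes. The ER stress response element (ERSE) is the promoter motif to which the factors NF-Y (at CCAAT) and ATF6 or XBP1 (at CCACG) bind. RefSeq promoters of mouse build GRCm38.p6, 250 bases before to 50 after the annotated start, were at hand for 27 of the 33 members. The motif, CCAAT and CCACG with 9 bases of any kind between them, searched on both strands, stood in the promoters of 9 of these 27 members, and in those of 37 of all 27025 genes with a promoter in the table (0.137%). The shorter ERSE-II, ATTGG and CCACG with 1 base of any kind between them, stood in 2 members and in 12 genes in all (0.0444%). The core TGACGTGG of the unfolded protein response element was in 0 of the 27 members and in 0.714% of all genes. CCACG, which is part of both ER stress motifs, stood alone or within them in 20 of the 27 members and in 35.5% of all genes. The 10 ERSE matches, of which Hsp90b1 had 2, ended between 26 and 194 bases before the start, 6 on the strand of the gene and 4 on the opposite strand. They are shown so that the shared ends and the differing spacer can be compared, each read in the direction of the motif with the fixed bases in capitals.
Hspa5: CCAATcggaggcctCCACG
Hsp90b1, nearer the start: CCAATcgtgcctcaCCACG
Hsp90b1, farther from the start: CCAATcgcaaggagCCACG
Calr: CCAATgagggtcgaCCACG
Canx: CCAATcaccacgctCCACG
Pdia6: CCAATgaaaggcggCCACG
Dnajc3: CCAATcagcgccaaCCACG
Creld2: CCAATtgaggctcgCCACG
Derl3: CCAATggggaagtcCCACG
Syvn1: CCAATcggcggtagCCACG
The ERSE-II matches were those below.
Herpud1: ATTGGgCCACG
Dnajb11: ATTGGcCCACG

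The whole promoters of Hspa5, to whose level the other members are set below, of Creld2, whose level followed it most closely, and of Derl3, the member called for protein, are given on the strand of each gene, with the ERSE in capitals. On the opposite strand the motif reads CGTGG first and ATTGG last, as it does for Creld2 and Derl3.
Hspa5, chr2:34771840-34772139, plus strand: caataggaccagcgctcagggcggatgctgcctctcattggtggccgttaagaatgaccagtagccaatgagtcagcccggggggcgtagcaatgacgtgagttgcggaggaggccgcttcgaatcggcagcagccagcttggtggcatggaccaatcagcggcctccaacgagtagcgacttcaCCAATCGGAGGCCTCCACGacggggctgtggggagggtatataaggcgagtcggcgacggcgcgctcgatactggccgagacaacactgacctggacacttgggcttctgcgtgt
Creld2, chr15:88819396-88819695, plus strand: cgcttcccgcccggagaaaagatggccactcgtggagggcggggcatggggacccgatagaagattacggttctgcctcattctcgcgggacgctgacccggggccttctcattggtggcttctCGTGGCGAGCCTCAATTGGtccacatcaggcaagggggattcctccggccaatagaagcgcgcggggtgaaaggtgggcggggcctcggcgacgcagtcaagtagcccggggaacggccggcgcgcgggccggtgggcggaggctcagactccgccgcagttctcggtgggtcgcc
Derl3, chr10:75893148-75893447, plus strand: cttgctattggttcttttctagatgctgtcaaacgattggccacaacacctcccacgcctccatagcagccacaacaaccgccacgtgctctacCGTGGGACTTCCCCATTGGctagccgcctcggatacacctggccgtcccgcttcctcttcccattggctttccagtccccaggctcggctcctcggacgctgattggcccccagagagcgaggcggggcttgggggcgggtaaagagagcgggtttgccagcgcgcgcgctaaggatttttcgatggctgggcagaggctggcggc
A match describes these letters only, and their part in the levels below was not tested.

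For several members, levels differed as much between mice on one diet as between all mice. For Hspa5 the SD within a combination of energy and composition was 0.329 log2 units, against 0.331 over all 48 mice. For Creld2 it was 0.675, against 0.617, and for Sdf2l1 0.682, against 0.626. In 13 of the 33 members (39.4%) the SD within combinations was at least 0.95 of that over all mice, as it was in 41.9% of all genes tested, and the median ratio was 0.901 for the members and 0.927 for all genes. The lowest ratios were 0.754 for Sel1l, 0.772 for Hyou1 and 0.773 for Hsp90b1. Levels of single genes are on the log2 scale of the array, on which genes are not compared with each other.

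The first question was whether the members followed the protein share. The protein slope says by how many log2 units a level changed when protein supplied 10 percentage points more of the energy, at the equal expense of the other nutrients. It was fitted with limma to all 48 mice with energy level as a factor. 1 of 33 members was called, Derl3, which fell with protein. Over all genes 7.01% were called in either direction and 3.65% downward, so the count lies below the share over all genes. At an unadjusted p under 0.05 11 members passed, where 26.6% of all genes did. 24 of the 33 slopes were negative, with a median of -0.032, against -0.0019 for all genes tested. On medium energy diets alone, which ran from 14% to 42% protein, 13 of the 33 slopes were negative and the median was 0.023. In the 34 mice numbered under 300 in the labels 18 were negative and the median was -0.014. On high energy diets alone 28 were negative (median -0.054), and in the 14 mice numbered over 300 also 28 (median -0.14). With the interquartile range of the array as a term 28 were negative (median -0.032).

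Every one of the 5 sensors and regulators had a negative slope, and none was called. Ern1, the kinase and endonuclease that splices Xbp1 mRNA, had 6.93, 7.60 and 8.01 log2 units as the lowest, median and highest of the 5% protein mice. The same values were 5.57, 6.98 and 7.27 at 14%, 5.14, 6.93 and 7.81 at 23%, 5.86, 6.76 and 7.41 at 33%, 5.48, 6.61 and 7.03 at 42%, and 5.99, 6.59 and 7.72 at 60%. The 5% mice were the highest as a group and overlapped with every other share. The slope of Ern1 was -0.15 ± 0.06 (SE; adjusted p = 0.111, limma, 48 mice).

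Eif2ak3, the kinase that slows translation by phosphorylating eIF2 alpha, had medians of 5.61 at 5% protein, 5.41 at 14%, 5.16 at 23%, 4.98 at 33%, 5.22 at 42% and 5.26 at 60%. Its values ran from 5.14 to 6.48 in 5% mice and from 4.54 to 5.88 in 60% mice, which overlap. Its slope was -0.12 ± 0.04 (SE; adjusted p = 0.0822, limma). Xbp1, the factor whose spliced form turns on folding and degradation genes, had a slope of -0.075 ± 0.028 (SE; adjusted p = 0.0829), with medians of 9.12 at 5% and 8.69 at 60% protein. Atf6, the membrane factor that is cut in the Golgi, had a slope of -0.069 ± 0.030 (SE; adjusted p = 0.140), with 8.41 to 9.12 in 5% mice and 8.06 to 8.73 in 60% mice. Wfs1, a membrane protein that restrains ATF6, had a slope of -0.12 ± 0.07 (SE; adjusted p = 0.216).

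The sensors also moved with the spread of the array. With its interquartile range as a further term, the protein slopes were -0.020 for Ern1, -0.049 for Eif2ak3, -0.013 for Atf6, -0.056 for Xbp1 and -0.0083 for Wfs1, with adjusted p between 0.522 and 0.980. In that model the range itself was tied to the levels of 15 of the 33 members, 8 up and 7 down, and to 54.5% of all genes. Ern1 had the smallest p among the members, a rise of 2.18 ± 0.34 log2 units for 1 unit of range (SE; adjusted p = 4.99e-07), and Atf6, Wfs1 and Eif2ak3 rose as well. P4hb, Hspa13 and Sec61b fell with it. Array spread was itself larger at 5% protein, as given above.

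**Figure D1:**
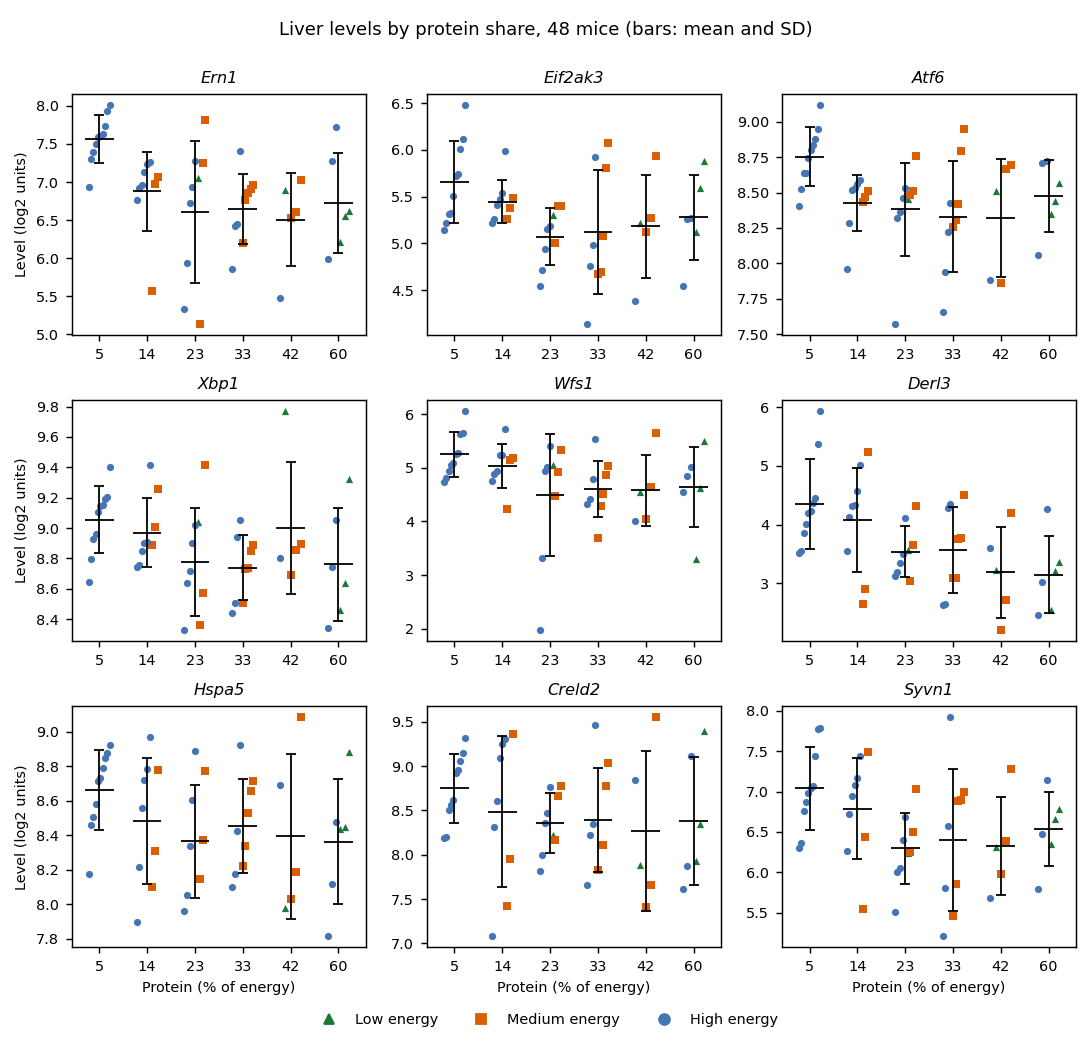
Level in log2 units (vertical axis) against protein share in percent of energy (horizontal axis) for 9 genes, 1 point per mouse, with shape and colour by energy level, points spread sideways within a share, and bars for mean and SD. The 5% protein mice lie between 6.93 and 8.01 for Ern1, and every share overlaps with the others.

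Of the 17 chaperones and folding enzymes none was called for protein, and 11 slopes were negative. Hspa5 had 8.18, 8.73 and 8.92 log2 units as lowest, median and highest at 5% protein, and 7.82, 8.44 and 8.88 at 60%. Its slope was -0.049 ± 0.032 (SE; adjusted p = 0.311), with a 95% interval of -0.11 to 0.01. Hspa13, an HSP70-like ATPase of microsomes, had the largest positive slope of the role, 0.083 ± 0.031 (SE; adjusted p = 0.0869), and Dnajc10, a reductase with a J domain, the most negative, -0.068 ± 0.028 (SE; adjusted p = 0.120). Calnexin (Canx), the membrane lectin chaperone, had a slope of -0.055 ± 0.024 (SE; adjusted p = 0.130). Creld2, Pdia6, Hsp90b1, Calr and Pdia5 had slopes of -0.060, -0.042, -0.037, -0.029 and 0.067, with adjusted p between 0.275 and 0.517. The SE was larger than the slope for Sdf2l1, Dnajb9, Dnajb11, P4hb, Dnajc3, Manf, Pdia3 and Hyou1, whose adjusted p were 0.645 or more.

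Of the 7 degradation genes, which recognise misfolded proteins, pass them back to the cytosol and mark them with ubiquitin, 1 was called. Derl3, a derlin of the retrotranslocation channel, had 3.52, 4.21 and 5.93 log2 units as lowest, median and highest at 5% protein, 2.66, 4.32 and 5.24 at 14%, and 3.04, 3.50 and 4.32 at 23%. It had 2.64, 3.76 and 4.51 at 33%, 2.20, 3.23 and 4.20 at 42%, and 2.46, 3.12 and 4.27 at 60%. Neighbouring shares overlapped throughout, and the 5% and 60% mice overlapped between 3.52 and 4.27.

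The slope of Derl3 was -0.21 ± 0.07 for 10 points of protein (SE; adjusted p = 0.0459, limma). The call was lost in 23 of the 48 fits without a single mouse. Its probe set averaged 3.73 log2 units, and whether that exceeds background was not tested. Its slope was -0.22 once the interquartile range was added (adjusted p = 0.187), where 0.668% of all genes were called. Without the first high energy 60/20/20 mouse 7 members were called, where 12.7% of all genes were, without the second 6, where 17.7% were, and without the medium energy 14/29/57 mouse 3 (Sec61a1, Derl3 and Canx, all down, where 7.62% of all genes were called). Its relatives Derl1 and Derl2 had slopes of -0.032 and 0.053, and neither was called. Syvn1, the ubiquitin ligase HRD1, and its partner Sel1l had -0.11 ± 0.06 and -0.089 ± 0.039 (SE; adjusted p = 0.210 and 0.137). Herpud1, a scaffold of that complex, had -0.070 ± 0.035 (SE; adjusted p = 0.191), and Edem1, which hands on trimmed glycoproteins, 0.0088 ± 0.0273.

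Of the 4 translocation and transport genes none was called for protein. Sec61a1, the pore of the translocon, had -0.069 ± 0.025 (SE; adjusted p = 0.0829), while Sec61b, its small subunit, had 0.085 ± 0.032 (SE; adjusted p = 0.0875). The probe set used for Sec61b averaged 2.10 log2 units. Ssr1 and Sec23b had slopes of -0.0064 and -0.0049.

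The logarithm of protein and array weights also raised the member count, and the count over all genes with it. On the logarithm of the protein share 11 members were called, 9 down and 2 up, where 21.6% of all genes were called. With weights for array quality 14 were called, 12 down and 2 up, where 25.4% of all genes were. Under both settings the sensors Ern1, Eif2ak3, Atf6 and Xbp1 fell, and Hspa13 and Sec61b rose.

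**Figure D2:**
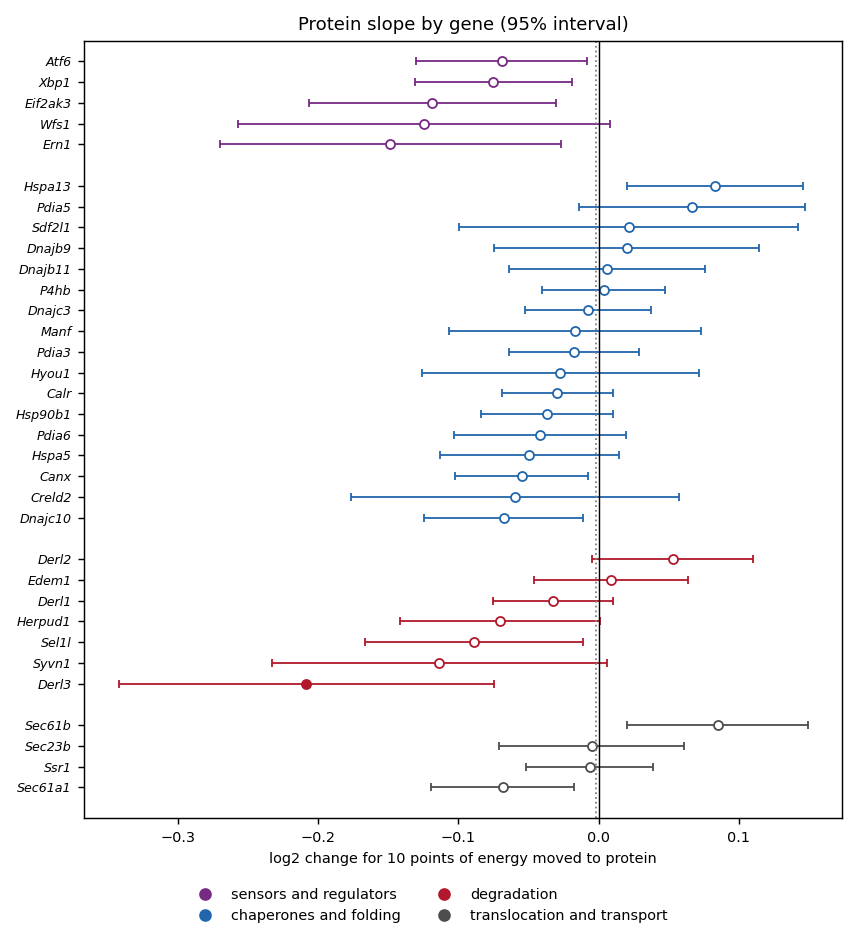
Protein slope (horizontal axis, in log2 units per 10 percentage points of protein) with its 95% interval for each of the 33 members (vertical axis), coloured by role, with a filled point where the adjusted p was under 0.05 and a dotted line at the median of all genes tested. The 5 sensors lie below 0, and Derl3 is the one filled point.

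Further genes of the pathway were described from lists. Over all genes 3.65% fell with protein and 3.37% rose. Of 10 genes listed for the PERK and ATF4 branch, 2 fell with protein. They were Nupr1, a stress-inducible nuclear protein, at -0.29 ± 0.07 (SE; adjusted p = 0.00552), and Sesn2, a leucine sensor upstream of mTORC1, at -0.28 ± 0.08 (SE; adjusted p = 0.0218). Both are targets of ATF4, which is also reached from amino acid shortage through another kinase. All 10 slopes of that list were negative. Asns, asparagine synthetase, had -0.34 ± 0.17 (SE; adjusted p = 0.186), and Ddit3 (CHOP) -0.038 ± 0.050 (SE; adjusted p = 0.641). Of 10 other stress transducers Creb3l2 fell, at -0.22 ± 0.07 (SE; adjusted p = 0.0405), and of 23 other folding enzymes Tmx2, a membrane thioredoxin, rose, at 0.11 ± 0.03 (SE; adjusted p = 0.0107). None of 19 other degradation genes, 29 translocon, signal peptidase and glycosylation genes or 20 COPII and retrieval genes was called. With the interquartile range of the array as a term 0.668% of all genes were called, and fits of these lists with that term are not given here.

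Markers of macrophages, endothelium, stellate cells and B and plasma cells had mostly negative protein slopes, with list medians farther below 0 than that of the members, while 1 of 4 pancreatic acinar and 2 of 4 bile duct markers had negative slopes. All 7 macrophage markers had negative slopes (median -0.12), of which 2 had an unadjusted p under 0.05 and none was called. All 5 endothelial markers did too (median -0.079), of which 3 had an unadjusted p under 0.05 and none was called. All 6 stellate cell markers had negative slopes (median -0.12), and Col1a1 fell, at -0.32 ± 0.09 (SE; adjusted p = 0.0278). Of 9 tested B and plasma cell markers 6 had negative slopes (median -0.086), and the 1 called, Sdc1, which hepatocytes also express, rose, at 0.11 ± 0.03 (SE; adjusted p = 0.0235). The summed macrophage markers ran from 8.46 to 10.38 log2 units in 5% mice and from 8.78 to 9.76 in 60% mice. Their medians from 5% to 60% protein were 9.81, 9.56, 9.57, 9.79, 9.81 and 9.31. The endothelial ones ran from 8.74 to 9.98 in 5% mice and from 8.83 to 9.36 in 60% mice. In the same order their medians were 9.58, 9.39, 9.27, 9.21, 9.19 and 9.14. The medium energy 14/29/57 mouse had 13.46 for macrophages and 11.40 for endothelium, and marker slopes without it are not given here. The summed level of the plasma and B cell list ran from 7.12 to 9.59 log2 units in 5% mice and from 7.47 to 8.20 in 60% mice, and that of the stellate list from 10.11 to 11.07 in 5% mice and from 9.83 to 10.45 in 60% mice. Tnfrsf17, one of the plasma cell markers, lay below the limit on low values. The part of these cells in the slopes of the members was not tested.

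The next questions were which nutrient the protein replaced and whether carbohydrate or fat mattered at a given protein share. For 10 points of energy moved from fat to carbohydrate, 0 of 33 members were called by limma, where 0% of all genes were. At an unadjusted p under 0.05, 0 members passed, where 665 genes did (3.93%). Slopes of the members ran from -0.052 to 0.078, with 23 of 33 positive and a median of 0.016. Without the medium energy 14/29/57 mouse 18 were positive and the median was 0.004. In all 48 mice Edem1 (0.052 ± 0.030), Dnajc10 (-0.045 ± 0.031) and Derl2 (0.037 ± 0.031) had the smallest p (SE; adjusted p = 0.999 for each). For protein in place of carbohydrate with fat held, 0 members were called, where 1.55% of all genes were, and 9 members had an unadjusted p under 0.05, as did 20.9% of all genes. The smallest p were those of Derl3 (-0.25 ± 0.07, adjusted p = 0.0641), Xbp1 (-0.089 ± 0.031, adjusted p = 0.107) and Sec61a1 (-0.074 ± 0.028, adjusted p = 0.134).

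For protein in place of fat with carbohydrate held, 0 members were called, where 4.25% of all genes were, and 8 had an unadjusted p under 0.05, as did 22.6% of all genes. Dnajc10 (-0.090 ± 0.033, adjusted p = 0.0989), Sec61b (0.10 ± 0.04, adjusted p = 0.106) and Eif2ak3 (-0.13 ± 0.05, adjusted p = 0.119) had the smallest p. Whether the protein slope depended on the carbohydrate and fat exchange was tested with an interaction term. 0 members and 0% of all genes were called, and 3.85% of all genes had an unadjusted p under 0.05. So had 2 members, Eif2ak3 (0.11 ± 0.04) and Hspa13 (-0.065 ± 0.030), both with an adjusted p of 0.967. Derl1 came next, at -0.036 ± 0.021.

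At high energy, the 5% protein diets were set against the 14% diets, 10 mice against 6. 0 members were called, where 0.425% of all genes were, and 1 had an unadjusted p under 0.05, where 11.7% of all genes did. That was Edem1, with 8.03 to 8.84 log2 units in the 5% mice, against 8.48 to 8.98 in the 14% mice, a difference of -0.32 ± 0.13 (SE; adjusted p = 0.322). With the interquartile range of the array as a term the difference was -0.51 and was called (adjusted p = 0.0443), where 0.349% of all genes were. Atf6 differed by 0.29 ± 0.15 (adjusted p = 0.441) and Derl2 by -0.29 ± 0.15 (adjusted p = 0.444). The fitted differences of all 5 sensors were positive, with Ern1 at 6.93 to 8.01 in the 5% mice, against 6.76 to 7.27 in the 14% mice, and none was called.

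Energy density made no difference that passed the test. High minus medium energy gave 0 members called, where 0% of all genes were. At an unadjusted p under 0.05, 0 members passed, where 8.13% of all genes did. Of the 33 differences 23 were positive, with a median of 0.035. Without the medium energy 14/29/57 mouse 12 were positive and the median was -0.012. The smallest p were those of Sec61a1 (-0.12 ± 0.09, adjusted p = 0.764), Dnajc10 (-0.13 ± 0.10, adjusted p = 0.776) and Atf6 (-0.13 ± 0.11, adjusted p = 0.809). Hspa5 had 7.82, 8.56 and 8.97 log2 units as lowest, median and highest in the 29 high energy mice and 8.03, 8.36 and 9.09 in the 14 medium energy mice.

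At 60/20/20, 3 low energy mice were set against 3 high energy mice, and again 0 members and 0% of all genes were called. At an unadjusted p under 0.05, 0 members passed, where 10.1% of all genes did. Of the 33 differences 25 were positive, with a median of 0.099, against -0.033 for all genes tested. Among the 17 chaperones and folding enzymes 15 were positive (median 0.26). With the interquartile range of the array as a term 28 of the 33 were positive (median 0.165). With array weights 16 were positive and the median was -0.0051. Sec23b, a coat subunit of export vesicles, had 6.90, 6.26 and 6.44 log2 units in low energy mice, against 6.37, 5.77 and 6.00 in high energy mice. The groups overlapped, and the difference was 0.49 ± 0.24 (SE; adjusted p = 0.497). P4hb (PDI), a disulfide isomerase, had 11.24, 11.27 and 11.22 in low energy mice, against 10.86, 10.78 and 11.08 in high energy mice. All 3 low energy mice lay above the high energy mice, and the difference of 0.34 ± 0.17 was not called (SE; adjusted p = 0.504). Sec61b had 2.72, 2.002 and 2.98 in low energy mice, against 1.97, 1.42 and 2.76 in high energy mice, a difference of 0.52 ± 0.27 (SE; adjusted p = 0.515).

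Many members followed the level of Hspa5 from liver to liver. With diet held in the model, the level of Hspa5 in the same liver was used as a covariate for every other gene, and the slope is the log2 change for 1 log2 unit of Hspa5. 18 of the 32 other members were called, all of them upward. Over all genes 0.922% were called upward and 1.48% in either direction (250 of 16925). The median slope of the 32 members was 0.50, against -0.018 for all genes. 9 of the 10 genes with the smallest p on the array were members, and 15 of the first 50. Both levels come from the same array, so what the liver and the array share enters both.

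The 16 other chaperones and folding enzymes all had positive slopes, and 13 were called. Creld2, a disulfide isomerase-like protein that is secreted under stress, had the smallest p of all genes. It had 9.55 log2 units in the mouse with the highest Hspa5 (medium energy 42/29/29, Hspa5 9.09) and 7.62 in the mouse with the lowest (high energy 60/20/20, Hspa5 7.82). Its slope was 1.68 ± 0.13 (SE; adjusted p = 6.33e-13, limma, 48 mice), more than 1 log2 unit for each unit of Hspa5. Manf, a small secreted protein that binds BiP, whose probe set averaged 3.50 log2 units, had 4.06 and 2.61 in the same pair of mice and a slope of 1.25 ± 0.11 (SE; adjusted p = 5.63e-11). Sdf2l1, a partner of the J protein Dnajb11, had 8.20 and 6.74 in that pair and a slope of 1.59 ± 0.17 (SE; adjusted p = 1.59e-08).

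The J proteins, which feed substrates to BiP, followed. Dnajb11 had a slope of 0.87 ± 0.11, Dnajb9, which also restrains IRE1 alpha, 1.14 ± 0.15, and Dnajc3 0.48 ± 0.08. Their adjusted p were 1.21e-06, 3.57e-06 and 0.000314. Hyou1, the large HSP70 relative that exchanges nucleotides on BiP, had 1.17 ± 0.16 (SE; adjusted p = 8.44e-06), and Hspa13 0.66 ± 0.11 (adjusted p = 0.000518). Of the disulfide isomerases Pdia6 had 0.72 ± 0.10, Pdia3, which works with the lectin chaperones, 0.54 ± 0.08, and Pdia5 0.65 ± 0.17 (adjusted p = 8.44e-06, 8.72e-06 and 0.0293). Hsp90b1 (GRP94), the HSP90 of this compartment, had 0.47 ± 0.09 (adjusted p = 0.00157), and calreticulin (Calr) 0.35 ± 0.08 (adjusted p = 0.0130). The 3 that were not called were P4hb (0.33 ± 0.09, adjusted p = 0.0529), Dnajc10 (0.28 ± 0.13, adjusted p = 0.295) and Canx (0.19 ± 0.11, adjusted p = 0.419).

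**Figure D3:**
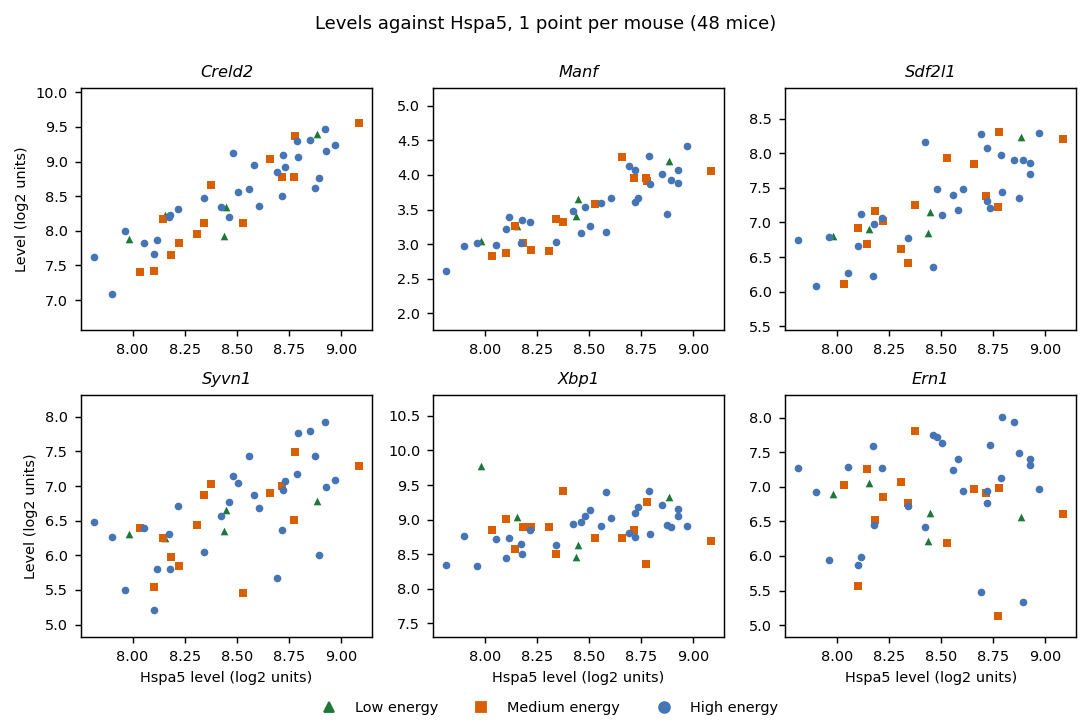
Level of 6 genes (vertical axis, log2 units, the same span of 3.5 units in every panel) against the level of Hspa5 in the same liver (horizontal axis, log2 units), 1 point per mouse, with shape and colour by energy level. Creld2, Manf, Sdf2l1 and Syvn1 rose with Hspa5, while the slopes of Xbp1 and Ern1 were not called.

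Of the 7 degradation genes all slopes were positive and 3 were called. Derl3 had 1.27 ± 0.26 (SE; adjusted p = 0.00463), Syvn1 1.15 ± 0.23 (adjusted p = 0.00378) and Herpud1 0.65 ± 0.14 (adjusted p = 0.00896). Sel1l (0.53 ± 0.17, adjusted p = 0.101), Derl2 (0.28 ± 0.13, adjusted p = 0.308), Edem1 (0.15 ± 0.13, adjusted p = 0.593) and Derl1 (0.14 ± 0.10, adjusted p = 0.511) were not. The 3 called genes held a match to ERSE or ERSE-II, shown above, and the promoters of Sel1l, Derl2 and Edem1 held none. That of Derl1 is not analysed here. In other roles, the promoters of the called Sdf2l1, Dnajb9, Pdia3, Pdia5, Sec23b and Ssr1 held neither motif. Of the 4 translocation and transport genes Sec23b (0.80 ± 0.11, adjusted p = 3.57e-06) and Ssr1, a subunit of the translocon-associated complex (0.42 ± 0.09, adjusted p = 0.00554), were called, and Sec61a1 (0.31 ± 0.11, adjusted p = 0.177) and Sec61b (0.27 ± 0.15, adjusted p = 0.397) were not.

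None of the 5 sensors and regulators was called. Eif2ak3 had 0.51 ± 0.20 (adjusted p = 0.202), Wfs1 0.35 ± 0.31 (adjusted p = 0.625), Xbp1 0.24 ± 0.13 (adjusted p = 0.389), Atf6 0.17 ± 0.14 (adjusted p = 0.611) and Ern1 -0.013 ± 0.290 (adjusted p = 0.988). The 95% intervals of Ern1, -0.60 to 0.57, and Xbp1, -0.02 to 0.50, hold the slopes of Dnajc3, Hsp90b1 and Calr and lie below that of Creld2. A sensor was called in 4 of 17 alternatives. Eif2ak3 was called with the interquartile range of the array as a term (0.77 ± 0.15, adjusted p = 0.00196), among 20 members where 1.29% of all genes were. It was called with that term also without the medium energy 14/29/57 mouse (adjusted p = 0.003), and under quantile normalization (adjusted p = 0.0279). On high energy diets alone Xbp1 was called (0.52 ± 0.13, adjusted p = 0.0476).

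Among the members with a promoter at hand, Hspa5 and the members called on it held the full ERSE in 8 of 16 promoters. The other members held it in 1 of 11, that of Canx. Hspa5 is the covariate and cannot be called on itself, yet it is counted among the 8 and the 16. The genes were listed for this response, and the part of the motifs in the slopes was not tested. ERSE-II stood in 2 of the 16 and in 0 of the 11. Promoters of Manf, Hyou1 and Hspa13, among others, are not analysed here.

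**Figure D4:**
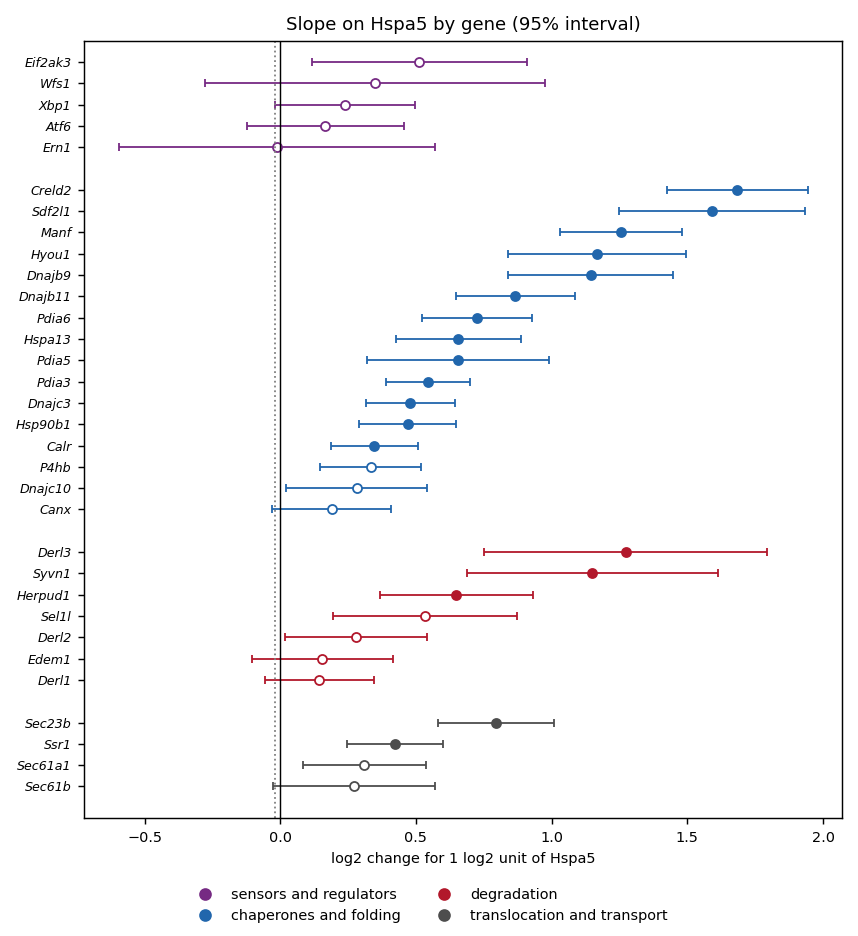
Slope on Hspa5 (horizontal axis, log2 change for 1 log2 unit of Hspa5) with its 95% interval for each of the other 32 members (vertical axis), coloured by role, with a filled point where the adjusted p was under 0.05 and a dotted line at the median of all genes tested. Creld2 lies farthest to the right at 1.68, 13 of the 16 chaperone points are filled, and the 5 sensor points are open.

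The 18 called members had positive slopes in every one of 17 alternatives, and the slope of Creld2 ran from 1.64 to 2.06 over them. These alternatives reuse all or some of the mice in which the 18 were called, so the signs are not independent of the calls. The count was 17 to 19 when single mice were left out and 18 without the medium energy 14/29/57 mouse, where 2.08% of all genes were called. It was 12 on high energy diets alone (0.579% of all genes), 12 in the 34 mice numbered under 300 in the labels (0.201% of all genes) and 5 in the 14 numbered over 300 (2.93% of all genes). In the 14 mice on medium energy diets only Creld2 was called (2.06 ± 0.26, adjusted p = 0.0293), where 0.00591% of all genes were. The level of Hspa5 also moved with the sex-linked genes, since of the 4 sex markers Kdm5d, a Y-linked demethylase, rose with it at 2.76 ± 0.70 (SE; adjusted p = 0.0277). On the mean of the Y-linked genes minus Xist, a comparison added after the data had been seen, 7 of 33 members rose and 0 fell, Hspa5 among them, where 2.14% of all genes rose and 5.66% were called in either direction. With that value as a term of the slope on Hspa5, 15 members were called, where 0.307% of all genes were.

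Some further genes of the secretory route rose with Hspa5, where 0.922% of all genes were called upward. Of 29 translocon, signal peptidase and glycosylation genes 7 were called, all upward. They were Srprb, a subunit of the receptor for the signal recognition particle (0.91 ± 0.12, adjusted p = 3.57e-06), Ostc and Rpn1 of the oligosaccharyl transferase, Spcs2, Spcs3 and Sec11a of the signal peptidase, and Ssr3. Of 23 other folding enzymes 5 were called, among them Ero1b, an oxidase that recharges disulfide isomerases (1.22 ± 0.18, adjusted p = 3.99e-05), and Txndc5 (0.72 ± 0.12, adjusted p = 0.00019), with Erp44, Sil1 and Uggt1. Of 19 other degradation genes only Ubxn4 was called (0.58 ± 0.09), and of 20 COPII and retrieval genes only Arfgap3 (0.69 ± 0.15, adjusted p = 0.00959). Negative slopes numbered 6 among these degradation genes (list median 0.017) and 7 among the COPII and retrieval genes (list median 0.11).

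Of the 10 genes listed for the PERK and ATF4 branch, Atf4 among them, 1 was called on Hspa5, Asns, at 2.84 ± 0.69 (SE; adjusted p = 0.0224). Ddit3 had 0.72 ± 0.22 (adjusted p = 0.0806), Atf4 0.14 ± 0.11 (adjusted p = 0.588), Nupr1 0.46 ± 0.31 (adjusted p = 0.493) and Sesn2 -0.52 ± 0.36 (adjusted p = 0.503). None of 10 other stress transducers was called. No tested marker of hepatocytes, B and plasma cells, pancreatic acinar cells, macrophages, stellate cells, endothelium or bile duct was called on Hspa5. Over all genes 1.48% were called. Slopes were negative for 5 of 5 endothelial (median -0.25), 5 of 7 macrophage (-0.38), 5 of 6 stellate cell (-0.18) and 7 of 9 B and plasma cell markers (-0.17). Negative slopes were found for 1 of 5 hepatocyte, 2 of 4 pancreatic acinar and 0 of 4 bile duct markers. The part of these cells in the slopes on Hspa5 was not tested.

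The same fit with Ern1 as the covariate, added after the data had been seen, set a sensor beside the chaperone. 12 of the 32 other members were called, 10 up and 2 down. Over all genes 44.4% were called (25% up and 19.3% down), so in this fit the share of members lay below that of all genes. Canx (0.29 ± 0.04, adjusted p = 3.73e-08), Sel1l (0.44 ± 0.07, adjusted p = 1.2e-06), Wfs1 (0.74 ± 0.12, adjusted p = 1.58e-06) and Syvn1 (0.63 ± 0.11, adjusted p = 8.71e-06) had the smallest p, and P4hb and Sec61b fell. With the interquartile range of the array as a term 15 of the 32 members were called, all up, where 26.4% of all genes were. There the share of members lay above that of all genes, and 27 of the 32 slopes were positive. With that term and without the medium energy 14/29/57 mouse, 4 of the 32 members were called, where 10.1% of all genes were.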

How the data were processed

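Affymetrix arrays, 1 per mouse, measured total RNA of 48 livers. The deposited values, from -0.51 to 13.42, were taken to be log2 levels on the strength of that range. How the authors corrected background and normalized is not given in the sources used here. Scanner files were not used. The number of arrays sets the precision. Of 41345 probe sets, 25335 were annotated, 23521 with 1 gene symbol and 1814 with several; only those with 1 were used.

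A gene was its probe set with the highest mean, and tests covered genes whose mean exceeded the 30th percentile over probe sets (1.17). Models were fitted to all tested genes in R 4.3.3 by limma 3.58.1, using lmFit and a trended eBayes, two-sided. Adjustment was by Benjamini-Hochberg over every gene tested, at a threshold of 0.05. The model held the protein share, the carbohydrate and fat exchange, and energy level as a factor. The comparisons of low with high energy at 60/20/20 and of 5% with 14% protein used 1 mean for each of the 20 combinations. The slope on Hspa5 added its level to the first model. The fits were tested on simulated data. Promoters came from RefSeq (GRCm38.p6) and were searched with Python 3.11.15.

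All members were named with values; those called, or the 3 with the smallest p, were given with their statistics in each comparison, with Hspa5, Xbp1, Atf6, Ern1 and Eif2ak3 always given for protein, and up to 4 called genes of each further list. Members and lists were chosen with earlier results of these data known. Alternatives changed the filter, probe set rule, normalization, weights, terms, protein scale or mice used. Mouse numbers under and over 300, medium energy alone, the interquartile range term without 1 mouse, and the slopes on Ern1 and on the Y-linked minus Xist value were added after the data had been seen.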

Additional observations from a re-analysis of the deposited data

Results flagged for a closer look

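Within the 6 protein shares (5 to 10 mice each), the gap of the lowest or highest mouse to its nearest neighbour was set against the range of the share, for 33 members and thus 198 groups. 15 gaps passed Dixon's 95% value, where chance passes about 1 group in 20. 7 of the 15 came from the medium energy 14/29/57 mouse, which was the lowest of the 9 mice at 14% protein for Ern1 (5.57, next 6.76), Hsp90b1 (10.35, next 10.99), Canx (9.69, next 10.38), Hyou1 (7.01, next 8.35), Edem1 (7.68, next 8.48), Sel1l (7.99, next 8.72) and Sec61a1 (8.84, next 9.38), all in log2 units.

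The other 8 came from 7 mice. At 14% protein Atf6 was low in a high energy 14/29/57 mouse (7.96, next 8.28) and Eif2ak3 high in a high energy 14/57/29 mouse (5.98, next 5.54). At 23% protein a high energy 23/65/12 mouse was lowest for Atf6 (7.57, next 8.32) and for Hsp90b1 (10.79, next 11.08). At 42% protein the single low energy mouse was highest for Xbp1 (9.77, next 8.89), and a medium energy mouse, the one with the highest Hspa5, was highest for Hsp90b1 (11.43, next 11.05). At 60% protein a low energy mouse was highest for Dnajc10 (7.64, next 6.89). At 5% protein a high energy 5/48/48 mouse was highest for Sec61a1 (10.01, next 9.74). What set these mice apart was not tested.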

How the results depend on the processing

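No member was called for the protein slope with no filter on low values (4.64% of all genes were) or under quantile normalization (6.34%). Nor was one called with the combination as a random block (3.72%). With the interquartile range of the array as a term the count was 0 (0.668%), also without the medium energy 14/29/57 mouse (1.15%). It was 0 in mice numbered under 300 (1.4%), in mice numbered over 300 (0.0295%) and on medium energy diets (0%). Members called numbered 2 on high energy diets (Sec61a1 and Eif2ak3, 4.71% of all genes), 11 on the logarithm of protein (21.6%) and 14 with array weights (25.4%). They numbered 0 to 7 when 1 mouse was left out (12.7% of all genes in the fit with 7). On medium energy diets, in 14 mice, the slope turned positive for Hspa5 (0.017, adjusted p = 0.985), Ern1 (0.099, adjusted p = 0.952) and Eif2ak3 (0.044, adjusted p = 0.973). Those diets run only from 14% to 42% protein, and their 14% mice include the medium energy 14/29/57 mouse. For protein in place of carbohydrate 9 members were called with array weights (17.9% of all genes), 1 with the Y-linked minus Xist term (1.81%) and 0 to 4 with 1 mouse left out (9.65% in the fit with 4, without the second high energy 60/20/20 mouse). For protein in place of fat 8 were called with array weights (18.7% of all genes), 1 on high energy diets (3.48%) and 0 to 1 with 1 mouse left out. For 5% against 14% protein 1 was called with the interquartile range as a term, with and without the medium energy 14/29/57 mouse (0.349% of all genes in each). On Hspa5 5 were called in mice numbered over 300 (2.93%) and 1 on medium energy diets (0.00591%). On Ern1 4 were called with the interquartile range as a term without the medium energy 14/29/57 mouse (10.1%). On Ern1 1 was called in mice numbered over 300 (7.73%) and 0 on medium energy diets (3.81%). The causes were not tested; the subsets hold fewer mice. No paired analysis was possible because the labels give the groups no shared replicate numbers. The counts for the carbohydrate and fat exchange, both energy comparisons and the interaction were 0 under every alternative run. Sec61b, Manf and Derl3 averaged 2.10, 3.50 and 3.73 log2 units, and whether these exceed background was not tested.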

Other observations

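The labels give no sex, so the mean of the Y-linked genes Kdm5d, Eif2s3y and Uty minus Xist was used as a number beside diet, over all 48 mice. The 7 members that rose with it (limma, adjusted over all genes) were Sdf2l1 (0.064 ± 0.015 for 1 log2 unit, SE; adjusted p = 0.00515), Manf (0.046 ± 0.012, adjusted p = 0.0103), Hspa13 (0.029 ± 0.008, adjusted p = 0.0248), Hspa5 (0.030 ± 0.008, adjusted p = 0.0270), Pdia3 (0.021 ± 0.006, adjusted p = 0.0295), Dnajb11 (0.031 ± 0.009, adjusted p = 0.0410) and Creld2 (0.051 ± 0.016, adjusted p = 0.0418). All 7 are chaperones or folding genes, and 27 of the 33 coefficients were positive. Without the medium energy 14/29/57 mouse 11 members rose, where 3.11% of all genes did. With the interquartile range of the array as a further term 2 rose, Sdf2l1 (adjusted p = 0.0425) and Xbp1 (adjusted p = 0.0144), where 1.57% of all genes rose.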
